A study of Homo sapiens with 9 samples.

Results

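The transcripts described here are those of 10 Kruppel-like factor genes, KLF2, KLF3, KLF4, KLF5, KLF6, KLF9, KLF10, KLF11, KLF13 and KLF16, out of 57500 genes counted in each library. They were selected by gene name, starting from KLF2, whose difference between ligand-treated and vehicle-treated cells was already known from these libraries, so the levels below are a description of chosen genes. HEK293T cells, an established line derived from human embryonic kidney, received either ligand at 10 µM or the vehicle DMSO alone for 5 h, and poly(A) RNA was sequenced from 3 biological replicates of each treatment, 9 libraries in all. HBC530 is a fluorophore that the Pepper RNA aptamer binds without a covalent bond. MsOc3HBC shares the HBC scaffold and carries in addition a short alkyl handle that ends in a mesylate leaving group, so that it can alkylate a guanine of the aptamer. The profiling asked whether the reactive ligand alters endogenous transcripts, and the labels name no aptamer-expressing plasmid in these cells. The ligands share 1 dose, and all groups share 1 cell line and 1 time point.

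Kruppel-like factors are transcription factors whose C-terminal zinc fingers bind GC-rich and CACCC elements, as do the related SP factors, and whose divergent N-terminal parts recruit activators or repressors. Several are themselves induced early after a stimulus: KLF2 by laminar flow through the MEK5, ERK5 and MEF2 cascade in endothelium, KLF6 by injury and growth signals, KLF10 and KLF11 by TGF-beta, and KLF9 by glucocorticoids. KLF4 is known from pluripotency and epithelial differentiation, KLF5 from epithelial proliferation, KLF3 as a repressor that binds CtBP, and KLF13 and KLF16 as factors that recruit SIN3A.

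The promoters of KLF2, KLF6 and KLF16 are shown because these genes stood apart from DMSO with both ligands (KLF2 and KLF6) or between the ligands (KLF2 and KLF16). Of the 10 genes, 8 matched a promoter window in RefSeq (GRCh38.p14) and 6 of them matched a single window. KLF3 and KLF10 had none among the windows searched. Whether RefSeq holds a promoter for them outside these windows was not tested. Each sequence below holds the 250 bases before the annotated RefSeq start, on the gene's own strand, 5′ to 3′, at chr19:16324576-16324825 (plus strand) for KLF2, chr10:3785210-3785459 (minus strand) for KLF6 and chr19:1863580-1863829 (minus strand) for KLF16. Capitals mark the GC box in all of them, the MEF2 core in KLF2 and the CCAAT box in KLF6.
KLF2: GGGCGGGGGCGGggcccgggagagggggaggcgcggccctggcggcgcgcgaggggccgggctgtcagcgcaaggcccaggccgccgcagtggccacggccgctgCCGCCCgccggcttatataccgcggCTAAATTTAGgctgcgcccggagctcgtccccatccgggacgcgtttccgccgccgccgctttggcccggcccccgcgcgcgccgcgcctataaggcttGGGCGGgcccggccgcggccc
KLF6: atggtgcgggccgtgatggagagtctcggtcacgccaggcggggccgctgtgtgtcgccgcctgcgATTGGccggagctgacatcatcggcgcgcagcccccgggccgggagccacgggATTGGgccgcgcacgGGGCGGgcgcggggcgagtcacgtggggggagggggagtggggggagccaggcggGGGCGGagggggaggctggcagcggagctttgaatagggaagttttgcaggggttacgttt
KLF16: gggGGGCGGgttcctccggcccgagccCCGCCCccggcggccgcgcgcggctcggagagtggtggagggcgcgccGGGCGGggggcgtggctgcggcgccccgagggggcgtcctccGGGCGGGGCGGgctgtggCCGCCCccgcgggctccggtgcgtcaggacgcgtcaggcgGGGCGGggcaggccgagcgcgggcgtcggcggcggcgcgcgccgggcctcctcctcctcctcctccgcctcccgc
All of them are GC-rich, and each holds more than a single GC box (GGGCGG on either strand), with 4 in KLF2, 2 in KLF6 and 6 in KLF16 when overlapping matches count once. This motif occurs in 42.6% of the 35116 RefSeq windows of the same length that were searched. The element CTAAATTTAG begins 120 bases before the KLF2 start and matches the MEF2 core (CTANNNNTA), which 14.6% of windows hold. It reads as a match on both strands and counts as 1 site, and none of the other 5 genes with a single window has this core. KLF6 holds 2 CCAAT boxes (CCAAT on either strand), as do KLF9 and KLF13, against 32.0% of windows with at least 1. The CACCC box was found in 54.7% of windows and, among the 6 genes, in KLF13 alone. The cAMP response element (TGACGTCA) was found in 1.65% of windows and in none of the 6 genes. Marked matches did not overlap between motifs. The 5 motifs were chosen after the promoters had been scanned with others, and a match is a string of letters, not a bound site.

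Total counts ranged from 28056929 to 62205366 per library. The 2 shallowest libraries, replicate 3 of HBC530 and replicate 3 of MsOc3HBC, stood apart on the first principal component (37.3% of the variance over 18041 genes), at 36.9 and 48.8 against -20.3 to -4.28 for the other 7 libraries. The fold changes of the 10 genes that leaving them out moved most are given with and without them. All 6 genes associated with HEK293 cells were expressed, with a summed level of 213 to 247 TPM (a level per transcript length) over the 9 libraries. Against DMSO, 5 of the 6 were lower with MsOc3HBC and 1, NEFM, was higher at an unadjusted p under 0.05 (10.9% of all genes), with none past the adjusted threshold. The 4 endothelial markers, PECAM1, CDH5, TEK and VWF, summed to only 0.0344 to 0.120 TPM. Of 3 fibroblast markers, 2 reached a mean of 1 CPM (counts scaled to a library of common size). As these are bulk libraries, a higher share of cells with a transcript and more transcript per cell cannot be told apart.

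Per transcript length, KLF16 was the most abundant of the 10 genes with DMSO, at 91.2 ± 3.27 TPM (SD, n = 3), and KLF5 followed at 27.6 ± 1.88 TPM. KLF9 (22.2 ± 3.03 TPM) and KLF6 (21.6 ± 1.33 TPM) came next, and their libraries overlapped. KLF10, KLF3 and KLF11 lay at 17.5 ± 1.12, 17.1 ± 1.26 and 15.6 ± 1.29 TPM, each overlapping its neighbour in this order. KLF13 stood lower at 11.6 ± 0.623 TPM, without overlap. KLF2 (3.59 ± 1.11 TPM) and KLF4 (3.52 ± 0.280 TPM) closed the order and overlapped each other. KLF2 was therefore one of the least abundant of these factors in vehicle-treated HEK293T cells. Of the other KLF and SP genes, SP1, a general GC-box factor, and SP2 reached 40.2 and 37.4 TPM, whereas KLF7 (1.44 TPM) and KLF14 (0.539 TPM) lay below KLF4.

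**Figure D1:**
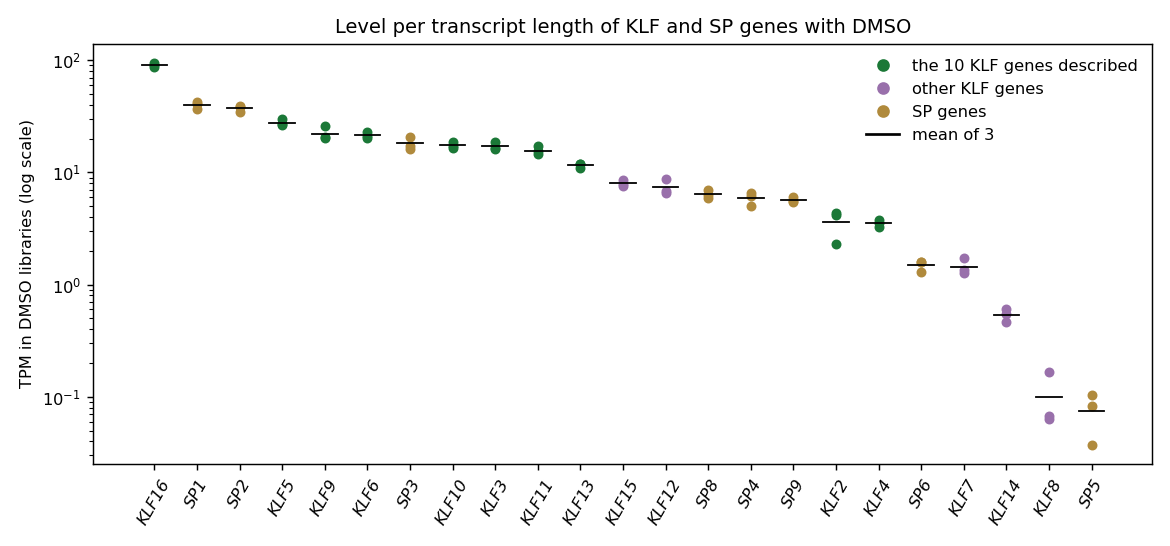
TPM in the 3 DMSO libraries (points, log scale) and their mean (line) for the 23 KLF and SP genes with counts in every DMSO library. KLF16 is highest at 91.2 TPM, and KLF2 and KLF4 are the lowest of the 10 genes described, at 3.59 and 3.52 TPM.

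In cells given either ligand KLF2 was higher than with DMSO. KLF2 (ENSG00000127528) has 3 exonic blocks at chr19:16324817-16327874 on the plus strand of GRCh38, and no other gene overlaps its exons. It drew 61, 152 and 156 counts in DMSO replicates 1 to 3, 277, 352 and 199 with HBC530, and 161, 201 and 115 with MsOc3HBC. Scaled to library size with TMM factors, these are 1.33, 2.54 and 2.5 CPM with DMSO, 5.28, 6.09 and 6.03 CPM with HBC530, and 3.61, 3.68 and 4.29 CPM with MsOc3HBC. All HBC530 libraries lay above all MsOc3HBC libraries, which in turn lay above all DMSO libraries. DMSO replicate 1 was the lowest of the 9.

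The fitted level of KLF2 was 2.69-fold that of DMSO with HBC530 (log2 fold change 1.43, SE 0.202, 95% interval 0.98 to 1.87, n = 3 against 3). With MsOc3HBC it was 1.79-fold (log2 fold change 0.84, SE 0.215, 95% interval 0.36 to 1.31). Neither passed the threshold of an adjusted p of 0.05 in the quasi-likelihood test of edgeR, adjusted after Benjamini and Hochberg over all genes (adjusted p = 0.0800 and 0.237), whereas both passed in DESeq2. Without DMSO replicate 1, the low library, the log2 fold changes were 1.20 (edgeR adjusted p = 0.143) and 0.60 (edgeR adjusted p = 0.320). Without replicate 3 of the ligand in question, they were 1.40 and 0.76.

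In TPM, KLF2 held rank 9 of the 10 genes with every treatment, while its distance to its neighbours changed. With HBC530 it reached 9.44 ± 0.973 TPM and overlapped KLF13 (10.8 ± 3.20 TPM) above it, from which it was separate with DMSO. This overlap came from replicate 3, in which KLF13 held 7.22 TPM, compared with 11.6 and 13.4 TPM in replicates 1 and 2, where KLF2 held 8.93 and 10.6 TPM. With MsOc3HBC it lay at 6.33 ± 0.303 TPM, between KLF13 (9.70 ± 2.27 TPM) and KLF4 (3.44 ± 0.103 TPM), overlapping neither. Its share of the summed TPM of the 10 genes was 1.56 ± 0.510% with DMSO, 4.13 ± 0.399% with HBC530 and 3.06 ± 0.371% with MsOc3HBC. The sum itself was 231 ± 5.92, 230.3 ± 35.3 and 209 ± 24.0 TPM, and its ranges overlapped between treatments.

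**Figure D2:**
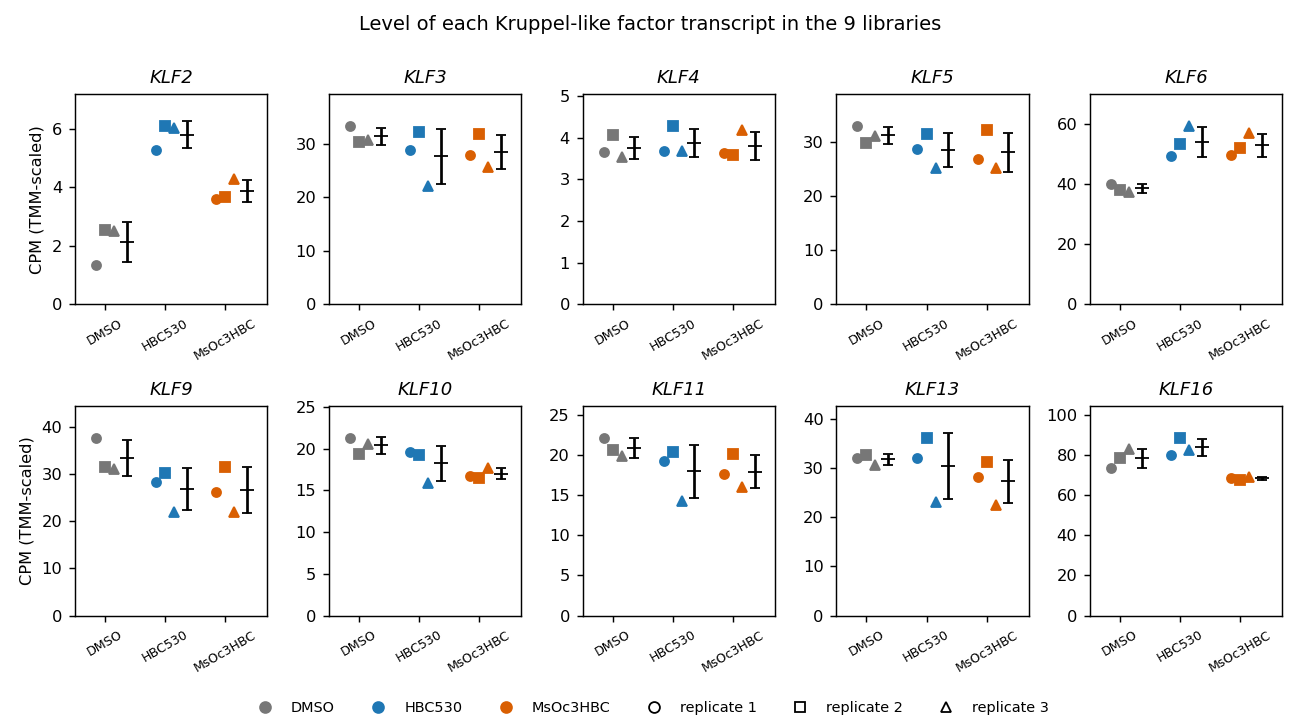
CPM (TMM-scaled, linear axes from 0) of the 10 genes in each of the 9 libraries, with symbols for the replicate number and bars for the mean ± SD of 3. KLF2 separates into 3 levels, KLF6 is higher with both ligands than with DMSO, and KLF16 is lower with MsOc3HBC than with HBC530.

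KLF6, a broadly expressed factor described as a tumour suppressor, was also higher with both ligands. Its gene (ENSG00000067082) lies at chr10:3775996-3785281 on the minus strand and overlaps no other exons. The DMSO libraries held 40.3, 38.2 and 37.5 CPM, the HBC530 libraries 49.4, 53.6 and 59.4 CPM, and the MsOc3HBC libraries 49.7, 52.3 and 57.2 CPM. Both ligand groups lay above every DMSO library and overlapped each other. The fold over DMSO was 1.40 with HBC530 (log2 fold change 0.49, SE 0.0953, 95% interval 0.27 to 0.70) and 1.38 with MsOc3HBC (log2 fold change 0.46, SE 0.0944, 95% interval 0.25 to 0.67). Neither passed the edgeR threshold (adjusted p = 0.514 and 0.118), and both passed in DESeq2. In both ligand groups KLF6 rather than KLF5 stood second in TPM, at 28.9 ± 1.55 and 28.7 ± 1.71 TPM, although its libraries overlapped those of KLF5. Replicate 3 was the highest library for KLF6 in each ligand group, and without it the log2 fold changes were 0.42 and 0.40.

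KLF16, the most abundant of the 10 genes, differed between the ligands. It lies at chr19:1852399-1863568 on the minus strand (ENSG00000129911) and shares exonic bases with ENSG00000267125, which drew 0 counts. DMSO libraries held 73.7, 78.8 and 83.2 CPM, HBC530 libraries 80.2, 88.9 and 82.7 CPM, and MsOc3HBC libraries 68.7, 67.6 and 69.3 CPM. Every MsOc3HBC library was below every DMSO and every HBC530 library, whereas DMSO and HBC530 overlapped. The log2 fold change against DMSO was -0.20 with MsOc3HBC (SE 0.0898, 95% interval -0.39 to 0.0017, edgeR adjusted p = 0.462) and 0.10 with HBC530 (SE 0.0875, edgeR adjusted p = 0.765).

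KLF9, inducible by glucocorticoids, and KLF10, inducible by TGF-beta, had lower mean levels with either ligand than with DMSO. KLF9 (chr9:70384597-70414624, minus strand) held 37.8, 31.4 and 31.0 CPM with DMSO, 28.4, 30.3 and 21.9 CPM with HBC530, and 26.3, 31.6 and 21.9 CPM with MsOc3HBC. The HBC530 libraries stayed below the DMSO libraries by less than 1 CPM, and the MsOc3HBC libraries overlapped them. The log2 fold changes were -0.31 (SE 0.132, edgeR adjusted p = 0.751) and -0.32 (SE 0.135, edgeR adjusted p = 0.432). Without replicate 3 of the ligand they were -0.18 and -0.20.

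KLF10 (chr8:102648779-102655902, minus strand) held 21.3, 19.4 and 20.6 CPM with DMSO and 19.6, 19.3 and 15.9 CPM with HBC530. With MsOc3HBC it held 16.7, 16.5 and 17.7 CPM, below every DMSO library. Its log2 fold change was -0.16 (SE 0.107, edgeR adjusted p = 0.751) with HBC530 and -0.26 (SE 0.0964, edgeR adjusted p = 0.382) with MsOc3HBC. Without replicate 3 of the ligand, these were -0.06 and -0.30. KLF11, the other TGF-beta-inducible early gene, held 19.9 to 22.2 CPM with DMSO, 14.3 to 20.5 CPM with HBC530 and 16.1 to 20.2 CPM with MsOc3HBC. All its groups overlapped, and both of its log2 fold changes were -0.21 (SE 0.132 and 0.109), compared with -0.06 and -0.14 when replicate 3 of HBC530 or MsOc3HBC was left out. Its exons overlap ENSG00000271787 on the other strand, which drew a mean of 0.889 counts.

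The other 4 genes overlapped DMSO with both ligands. KLF4 (3.54 to 4.06 CPM with DMSO) had log2 fold changes of 0.05 with HBC530 (95% interval -0.22 to 0.32) and 0.0098 with MsOc3HBC (95% interval -0.28 to 0.30). KLF4 and KLF2 overlapped in TPM with DMSO, and of these genes KLF2 alone had ligand libraries that stood apart from DMSO. KLF5 (29.8 to 32.9 CPM with DMSO) had log2 fold changes of -0.13 with HBC530 and -0.15 with MsOc3HBC, and -0.04 and -0.08 without replicate 3 of the ligand. KLF3 (30.3 to 33.2 CPM with DMSO) had -0.18 and -0.14, and -0.04 and -0.07 without those libraries. It shares 266 exonic bases with KLF3-AS1 on the other strand, which drew a mean of 32.3 counts against 1445 for KLF3. KLF13 (30.6 to 32.7 CPM with DMSO) had -0.06 and -0.21, and 0.11 and -0.10 without them.

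The third ligand libraries were mostly the lowest or the highest of their group, for these genes and for genes in general. Replicate 3 of HBC530 was the lowest of its group for 7 of the 10 genes and the highest for 1, KLF6, beside 46.2% and 43.8% of 13613 genes in general. KLF3 held 28.7, 32.1 and 22.0 CPM in HBC530 replicates 1 to 3, and KLF13 held 32.0, 36.1 and 23.0 CPM. Replicate 3 of MsOc3HBC was the lowest of its group for 5 genes and the highest for the other 5, KLF2 among them. Among the 13613 genes these shares were 42.8% and 43.5%. The part of these libraries in the lower values of KLF3, KLF5, KLF9, KLF11 and KLF13 was not tested beyond leaving them out.

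**Figure D3:**
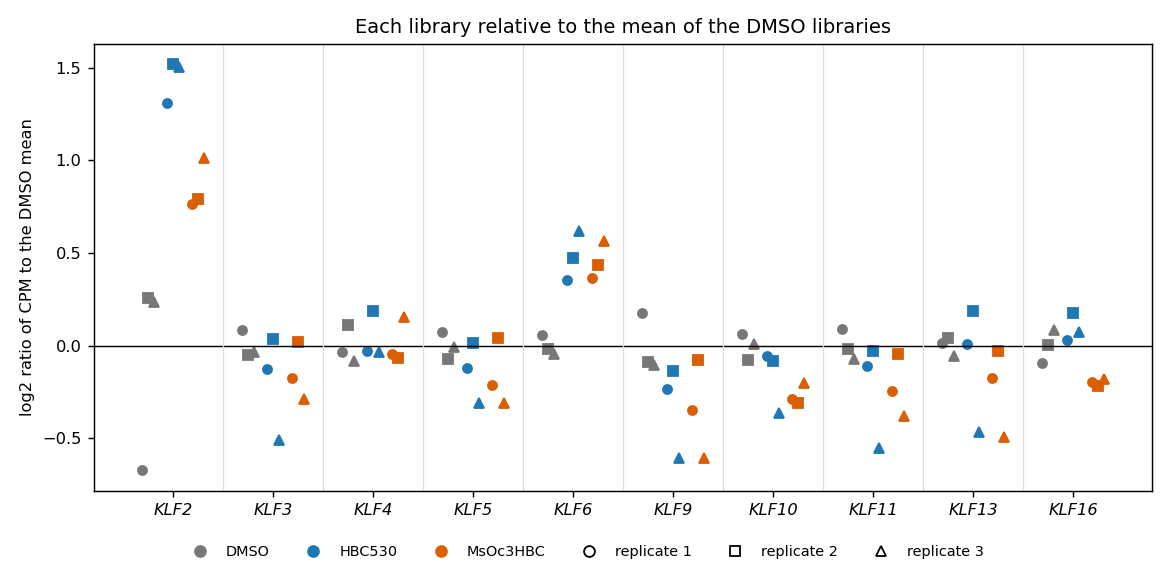
Log2 ratio of each library's CPM to the mean of the DMSO libraries, for the 10 genes. The ligand libraries of KLF2 and KLF6 lie above 0, and the third libraries (triangles) of HBC530 and MsOc3HBC are the lowest points with a ligand for KLF3, KLF5, KLF9, KLF11 and KLF13.

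Counted over the 10 genes, none was called at an adjusted p under 0.05 in edgeR with HBC530 against DMSO or with MsOc3HBC against DMSO, beside 0.017% and 0.154% of all genes tested. At an unadjusted p under 0.05, 3 of 10 passed with HBC530 (KLF2, KLF6 and KLF9), beside 5.07% of all genes, and 4 of 10 with MsOc3HBC (KLF2, KLF6, KLF9 and KLF10), beside 10.9%. Libraries did not overlap between HBC530 and DMSO for 3 of 10 genes (KLF2, KLF6 and KLF9), beside 13.8%, and between MsOc3HBC and DMSO for 4 of 10 (KLF2, KLF6, KLF10 and KLF16), beside 18.3%. DESeq2 called 2 of 10 in each of the 2 comparisons, KLF2 and KLF6 both times, beside 0.142% with HBC530 and 0.735% with MsOc3HBC. With limma-voom none was called, beside 0.0283% and 0.12%. Since the genes were chosen from results on these libraries, nothing is read from these shares. The median log2 fold change of the 10 genes was -0.09 with HBC530 and -0.17 with MsOc3HBC, beside 0.0046 and 0.01 for all genes tested, and the 2 comparisons share their DMSO libraries.

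**Figure D4:**
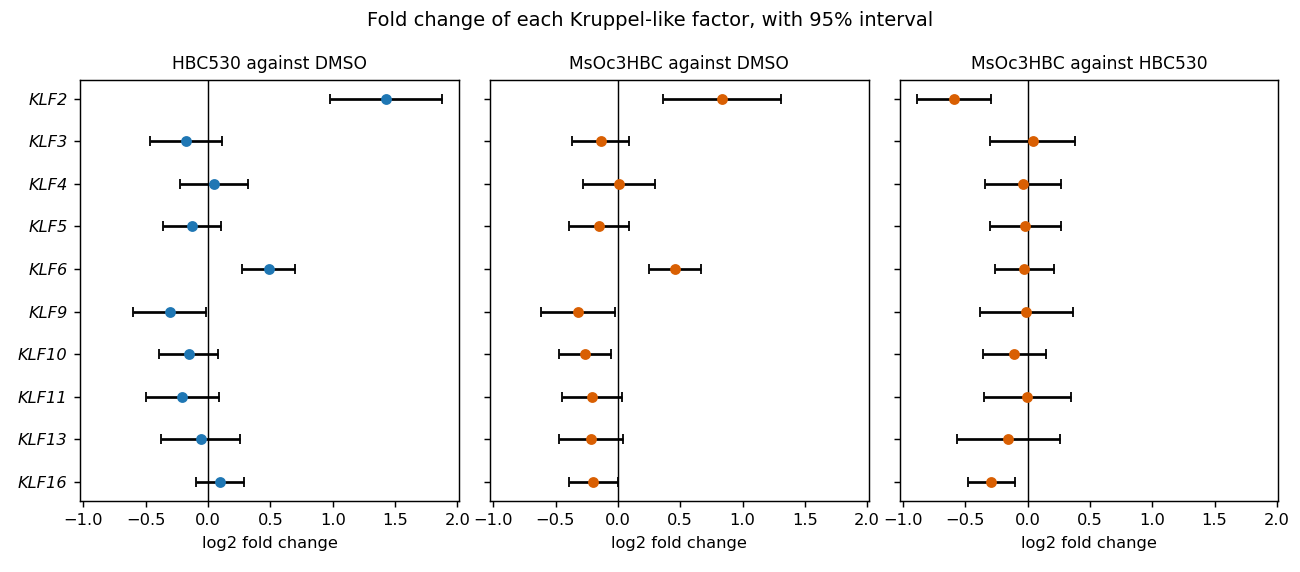
Log2 fold change (points) and 95% interval (bars) of the 10 genes in each of the 3 comparisons, 3 libraries against 3, from edgeR. Against DMSO the intervals of KLF2 and KLF6 lie above 0 with each ligand. Those of KLF9 with each ligand and of KLF10 with MsOc3HBC lie below 0. In MsOc3HBC against HBC530 the intervals of KLF2 and KLF16 lie below 0.

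HBC530 and MsOc3HBC were given at the same dose for the same time, so their readouts can be set against each other as 1 pair of compounds that differ in the reactive handle. KLF2 was lower with MsOc3HBC than with HBC530, at 0.663 of its level (log2 fold change -0.59, SE 0.128, 95% interval -0.89 to -0.30). KLF16 was lower at 0.817 of its level (log2 fold change -0.29, SE 0.0813, 95% interval -0.48 to -0.10). Neither passed the threshold in the unpaired edgeR fit (adjusted p = 0.643 for both), in which none of the 10 genes and 0.0% of all genes were called, as with limma-voom (0.0%). Libraries with the same replicate number deviated together between these ligands, which the outlying replicate 3 of each ligand can produce without pairing. Whether these libraries are paired is therefore not settled. With the replicate number as a block in edgeR, KLF2 (log2 fold change -0.60, adjusted p = 0.00483) and KLF16 (-0.29, adjusted p = 0.00595) passed. That was 2 of 10 genes, beside 11.4% of all genes. With the third libraries of both ligands left out, KLF2 and KLF16 again passed in edgeR (log2 fold changes -0.65 and -0.32, adjusted p = 0.00569 and 0.00541), beside 9.16% of all genes. Both also had an unadjusted p under 0.05 (7.32% of all genes) and no overlap between the groups (15.4%). DESeq2 gave an adjusted p to 8 of the 10 genes, without KLF2, and called none of them, beside 0.304% of all genes.

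For KLF6 the ligands were close, with a log2 difference of -0.03 whose 95% interval runs from -0.26 to 0.21. Among KLF3, KLF4, KLF5, KLF9, KLF10, KLF11 and KLF13 the difference ran from -0.16 (KLF13, 95% interval -0.57 to 0.26) to 0.04 (KLF3, 95% interval -0.30 to 0.38). A log2 difference of -0.29, the size seen for KLF16, lies inside the intervals of all 7, so these genes are not shown to respond alike. Without the third libraries KLF10 had a log2 difference of -0.24 (edgeR adjusted p = 0.0584), compared with -0.11 with all libraries.

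Of the 17 other KLF and SP genes, listed by family name, 11 passed the filter on low counts in HBC530 against DMSO and 12 in each of the other comparisons, and none was called by edgeR. KLF15, a factor of liver and muscle metabolism, held 6.07, 7.11 and 6.77 CPM with DMSO, 8.15, 7.39 and 7.52 CPM with HBC530, and 9.40, 9.75 and 9.71 CPM with MsOc3HBC. Its libraries rank in the opposite order of ligands to those of KLF2, with a log2 fold change of 0.53 for MsOc3HBC against DMSO (SE 0.109, edgeR adjusted p = 0.118, called in DESeq2 with adjusted p = 0.0251) and 0.21 for HBC530. Between the ligands the KLF15 difference was 0.32 (SE 0.0977, 95% interval 0.10 to 0.55, edgeR adjusted p = 0.643, and 0.0243 with the replicate block). KLF7, a factor of neuronal development, had log2 fold changes of 0.45 with HBC530 and 0.59 with MsOc3HBC (edgeR adjusted p = 0.751 and 0.297). SP2 had -0.33 and -0.36, and SP8, a developmental factor, -0.41 and -0.39, none of them called.

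The 6 lists of genes linked to Kruppel-like factors held 50 genes, of which 46 were tested. The single gene called in them was RHOB, a growth-factor-inducible early gene, which rose with HBC530 from 142, 159 and 155 CPM to 361, 376 and 346 CPM (log2 fold change 1.25, SE 0.0851, edgeR adjusted p = 0.000469). With MsOc3HBC it held 256, 278 and 258 CPM (log2 fold change 0.80, SE 0.0919, edgeR adjusted p = 0.00508, and 0.0964 without DMSO replicate 1). Between the ligands RHOB differed by -0.45 (SE 0.0849, edgeR adjusted p = 0.643, and 0.000212 with the replicate block). KLF2 and RHOB thus had the same order of treatments.

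In the cascade that leads to KLF2 in endothelium, from MAP3K2 and MAP3K3 through MAP2K5 and MAPK7 to the MEF2 factors, none of 8 genes was called. MEF2C, one of the factors that bind the MEF2 core, had a log2 fold change of -0.33 with HBC530 (SE 0.108, edgeR adjusted p = 0.751) and -0.12 with MsOc3HBC, while MAP3K2, the kinase at the head of the cascade, had -0.24 and 0.04. Of 8 described KLF2 targets 5 were tested and none was called. THBD (thrombomodulin) had a log2 fold change of -0.40 with HBC530 and -0.56 with MsOc3HBC at 0.635 to 1.25 CPM, and S1PR1, the receptor through which KLF2 sets lymphocyte egress, -0.39 and -0.46 at 1.27 to 2.44 CPM. Over the 5 targets tested, 3 had a positive and 2 a negative value with HBC530, and 1 a positive and 4 a negative value with MsOc3HBC.

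Of 12 cofactors and ubiquitin ligases none was called. CTBP1, a corepressor of KLF3, had log2 fold changes of 0.12 with HBC530 and -0.08 with MsOc3HBC. SIN3A, a corepressor of KLF13 and KLF16 among other factors, had -0.26 with HBC530 and -0.24 with MsOc3HBC. CTBP1 shares exonic bases with CTBP1-AS2 on the other strand, which drew a mean of 651 counts against 9322 for CTBP1. Among 7 tested genes of TGF-beta signalling, upstream of KLF10 and KLF11, none was called. SKIL, a feedback inhibitor of the pathway, had -0.29 with HBC530 and 0.10 with MsOc3HBC, and SMAD3, a receptor-activated SMAD, -0.18 and -0.32. Among 7 genes of the glucocorticoid receptor and its targets, none was called. DUSP1, a phosphatase of MAP kinases, held 25.6, 27.3 and 26.9 CPM with DMSO and 33.1, 34.3 and 34.4 CPM with HBC530 (log2 fold change 0.35, SE 0.0851, edgeR adjusted p = 0.751), and TSC22D3, the glucocorticoid-induced leucine zipper, had a log2 fold change of 0.32 with MsOc3HBC (edgeR adjusted p = 0.323). With the other ligand the values were smaller, at 0.13 for DUSP1 with MsOc3HBC and 0.08 for TSC22D3 with HBC530. Over the 7 genes, 3 had a positive and 4 a negative value with HBC530, and 2 a positive and 5 a negative value with MsOc3HBC. With the replicate block, 9 of the 46 genes of the 6 lists passed between the ligands, beside 11.4% of all genes. RHOB, MAP3K2, SKIL, CTBP1, DUSP1 and TSC22D3 were among them.

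The profiles most like that of KLF2 over the 9 libraries were found by the root mean square difference of log2 CPM relative to the DMSO mean, among 13612 other genes with a mean of at least 1 CPM. RHOB was nearest at 0.279, where a gene with no difference between libraries would lie at 1.04 from KLF2. ATF3, a stress-induced transcription factor, followed at 0.528, with 35.2 ± 1.79 CPM with DMSO, 58.7 ± 2.90 CPM with HBC530 and 62.3 ± 0.463 CPM with MsOc3HBC. Unlike KLF2, ATF3 was not higher with HBC530 than with MsOc3HBC. The uncharacterised transcripts AL009174.1 and AL354872.2 came next at 0.539 and 0.549, both near the limit of 1 CPM. With DMSO, HBC530 and MsOc3HBC, AL009174.1 held 0.935 ± 0.168, 1.51 ± 0.197 and 1.61 ± 0.647 CPM. AL354872.2 held 0.718 ± 0.0778, 1.44 ± 0.669 and 1.65 ± 0.899 CPM. Neither had a higher mean with HBC530 than with MsOc3HBC. CTGF, a secreted matricellular protein, followed at 0.563, with 4.76 ± 0.652, 8.24 ± 0.438 and 6.87 ± 0.525 CPM in the same order of treatments. The likeness is a description over libraries that all these genes share.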

How the data were processed

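Per the submitters' processing notes, reads were trimmed (Trimmomatic 0.36), mapped to GRCh38 (STAR 2.5.2b) and assigned to genes by featureCounts (Subread 1.5.2). Annotation release, strand setting and pair counting are not given in the sources used here, so overlapping genes may hold each other's reads. The deposited files hold raw counts of 57500 genes in 9 libraries. The authors' tables also hold normalized values, fold changes and p-values of each ligand against DMSO, made with DESeq2. Only their gene names and IDs were used.

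Each fit held the 6 libraries of its groups and used edgeR 4.0.16 under R 4.3.3 (filterByExpr, TMM factors, quasi-likelihood F test, Benjamini-Hochberg adjustment over all genes tested, threshold 0.05). CPM were scaled by TMM, and TPM used the exonic lengths of the count files. The 10 genes, the 12 lists and the tests were chosen with earlier results of these data known, so an adjusted p states only on which side of the threshold a chosen gene lies. Named list genes were those called in any comparison, otherwise the 2 with the smallest p in each list. The result of a further marker list is not reported here. DESeq2 1.42.0, limma-voom 3.58.1, RLE and upper-quartile scaling, other filters, a joint fit, the replicate block and left-out libraries were alternatives.

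To check the pairing by replicate number, the deviation of each library from its group mean was correlated, over genes, with that of the same-numbered library. The correlations were 0.167, 0.368 and 0.433 between the ligands, all over 0.1, so blocked values stand beside that comparison. These correlations cannot tell pairing from the outlying replicate 3 of each ligand. Deviations from a group mean cancel out, so replicate 3 can also make the correlations of the other replicates positive. Libraries with different replicate numbers were not compared. Replicates of 1 group differed beyond sampling noise (chi-square per gene 5.73 to 65.3), and each counted as its own replicate. The fits were tested on simulated data.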

Additional observations from a re-analysis of the deposited data

How the results depend on the processing

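The 3 libraries per group and the low level of KLF2 (61 to 352 counts per library) limit the precision. The intervals state the uncertainty of a fitted difference between groups, as estimated from these replicates only. Alternatives were planned, and calls are at an adjusted p under 0.05. Among the 10 genes, 429 of 430 alternative values moved by less than 1 SD, the exception being KLF10 between the ligands without the third libraries (-0.24). For HBC530 against DMSO, DESeq2 called 2 of them, the fit without a filter 2, all 9 libraries in 1 fit 1 (KLF2) and the replicate block 1 (KLF2). For MsOc3HBC against DMSO, DESeq2, the fit without a filter and the replicate block each called 2, KLF2 and KLF6. Between the ligands the replicate block and the fit without the third libraries each called 2. Leaving out 1 library called 0 throughout. Between ligand and DMSO libraries of the same number the correlations ran from -0.111 to 0.172, which does not settle whether these libraries are paired. Of the other KLF and SP genes with MsOc3HBC against DMSO, DESeq2 called 1, the fit without a filter 2, the replicate block 1 and leaving out 1 library 0 to 1 (KLF7 without MsOc3HBC replicate 3). Between the ligands the block called 2, SP3 and KLF15, beside 11.4% of all genes. Of the pathway genes, leaving out 1 library called 0 to 1 for MsOc3HBC against DMSO (0 without DMSO replicate 1). For these genes between the ligands, DESeq2 called 1, the block 9 and the fit without the third libraries 9. The shares of all genes were 0.304%, 11.4% and 9.16%.

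Signs turned, with no call, when 1 library was left out for MAP3K2 with MsOc3HBC against DMSO (-0.0540 to 0.199) and, between the ligands, for SP2 (-0.154 to 0.0633), SP8 (-0.201 to 0.194, and -0.0927 without the third libraries), SIN3A (-0.102 to 0.130) and S1PR1 (-0.304 to 0.0455). Among the 10 genes, values near 0 also turned sign in at least 1 alternative: KLF4 in all comparisons, KLF13 with HBC530 against DMSO, and KLF3, KLF5, KLF6, KLF9 and KLF11 between the ligands. The cause was not tested. For the genes of the lists, 606 alternative values kept their direction and side of the threshold, 19 passed it in addition, 1 no longer passed (RHOB without DMSO replicate 1, 0.75) and 13 turned.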
